A study of Mus musculus with 12 samples.

Results

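The 8 genes of peroxisomal fatty acid breakdown followed here across 12 mouse liver RNA libraries are the membrane importers Abcd2 and Abcd3, the multifunctional enzymes Ehhadh and Hsd17b4, the thiolases Acaa1a and Acaa1b, the reductase Decr2 and the acyltransferase Crot. They were chosen by name, with earlier results of these data known, as 8 of the 25164 genes listed in the deposited tables. All 8 passed the low-count filter that left 13477 genes. The study had assigned 10 mice to each of 3 groups, and 4 libraries per group are described here. Control mice stayed on a normal diet throughout the 14 weeks, and mice of the HFD group on a high-fat diet for the same time. The HFD plus fenofibrate group had 10 weeks of high-fat diet, then 4 more weeks of it with fenofibrate gavage. The drug lowers blood lipids and acts through the nuclear receptor PPARA. Strain, sex, age at the start, dose and gavage vehicle are not in the labels used here, nor whether Control and HFD mice were gavaged with vehicle.

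Peroxisomes shorten fatty acids that mitochondria handle poorly, such as very long, branched and dicarboxylic chains and the side chain of bile acid precursors. Acyl-CoAs enter through half-transporters of the ABCD family, an acyl-CoA oxidase makes the first double bond and hydrogen peroxide, a multifunctional enzyme hydrates and oxidises the chain, and a thiolase cuts off acetyl-CoA. The shortened chains leave as carnitine esters or free acids. In rodent liver many genes of this pathway are textbook targets of PPARA.

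Levels are given in CPM, a gene's reads relative to the TMM-scaled size of its library, and changes as log2 fold change ± SE. A gene is said to have risen or fallen where edgeR's quasi-likelihood test gave a Benjamini-Hochberg adjusted p under 0.05 over all 13477 genes. The labels are silent on housing, dissection and sequencing runs, and the p-values therefore measure only the spread between these libraries. Because the tissue was sequenced in bulk, fewer cells of a type and less RNA per cell cannot be told apart.

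Total counts ran from 15797016 to 18514481 per library. Hepatocyte markers were abundant in every library (9 of 10 listed, summing to 116139 to 143684 CPM of total counts), and adipocyte markers summed to at most 17.6 CPM. Fenofibrate libraries 1 and 3 stood apart. The 5 listed striated muscle markers of 6 reached a sum of 159 CPM in the first and 122 CPM in the second of these, compared with 0.475 to 0.54 CPM in fenofibrate libraries 2 and 4, 0.223 to 0.536 in Control and 0.539 to 0.906 in HFD, where Ckm and Myh4 were at 0. All 9 pancreatic acinar markers were listed and reached a sum of 1851 CPM in fenofibrate library 1, compared with 9.02 to 13.9 CPM in fenofibrate libraries 2 to 4, 6.24 to 9.92 in Control and 18.2 to 31.1 in HFD, with Pnlip, Cpa1, Cela3b, Prss2, Cel and Amy2b at 0 in both of those groups. Erythroid markers (5 of 5 listed) summed to 1185 CPM in fenofibrate library 1, compared with 202 to 397 CPM in fenofibrate libraries 2 to 4, 237 to 484 in Control and 390 to 450.4 in HFD. Stellate cell markers (4 of 4 listed) summed to 189 to 251 CPM with fenofibrate, below the 255 to 315 CPM of HFD in every library, and to 188 to 307 CPM in Control. No marker of these 2 lists was at 0 in a whole group. The part of these transcripts in the results was not tested, and the fenofibrate changes of the 8 genes are also given without libraries 1 and 3. The clock gene Nr1d1 stood at 11.7 ± 3.72 CPM in Control, 78.2 ± 10.1 in HFD and 103 ± 20.2 with fenofibrate (SD, n = 4), and Arntl at 31.9 ± 4.88, 11.2 ± 5.16 and 9.85 ± 2.40. The time of harvest is not in the labels used here, and its part in the results was not tested.

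In HFD against Control, 4 of the 8 genes rose: Acaa1b, Crot, Abcd3 and Decr2. None fell (edgeR, 0 at an unadjusted p under 0.05, against 14.2% of all genes, and 0 with DESeq2, against 7.48%). Over all genes tested 6.13% rose and 6.64% fell, 12.8% in all. The median log2 change was 0.54 over the 8 genes and -0.02 over all genes tested. An unadjusted p under 0.05 with a higher level in HFD was reached by 7 of the 8, Ehhadh being the exception, and by 12.7% of all genes tested. The same 7 rose at the adjusted threshold with DESeq2, as did 7.41% of all genes. The libraries of the 2 groups did not overlap for 4 genes, Acaa1a, Acaa1b, Crot and Decr2, all higher in HFD, and for 8.48% of all genes in that direction.

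With fenofibrate on the high-fat diet, 3 of the 8 genes fell against HFD, namely Crot, Abcd3 and Acaa1b, and Abcd2 rose. Over all genes tested 6.89% rose and 6.59% fell, 13.5% in all. The median log2 change was -0.37 over the 8 genes and 0.01 over all genes tested. The 3 genes that fell were also those whose libraries did not overlap between the groups. Over all genes, 10.3% were lower without overlap. Without fenofibrate libraries 1 and 3, only Crot of the 8 passed, and 124 genes passed in all, against 1816 with every library. The changes of Acaa1b and Abcd2 were then nearly the same size as with all libraries, and that of Abcd3 was smaller.

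In HFD plus fenofibrate against Control, 2 genes rose, Acaa1a and Abcd2. None fell by edgeR (1 gene, Ehhadh, was lower at an unadjusted p under 0.05, as were 12.7% of all genes) or with DESeq2, where 5.48% of all genes fell. Over all genes tested 4.86% rose and 4.31% fell, 9.17% in all. The median log2 change was 0.18 over the 8 genes and -0.01 over all genes. Libraries did not overlap for Acaa1a, Abcd2 and Decr2, all higher with fenofibrate, and for 6.89% of all genes in that direction. The 3 comparisons share libraries, so their values stand side by side and are not independent of each other.

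**Figure D1:**
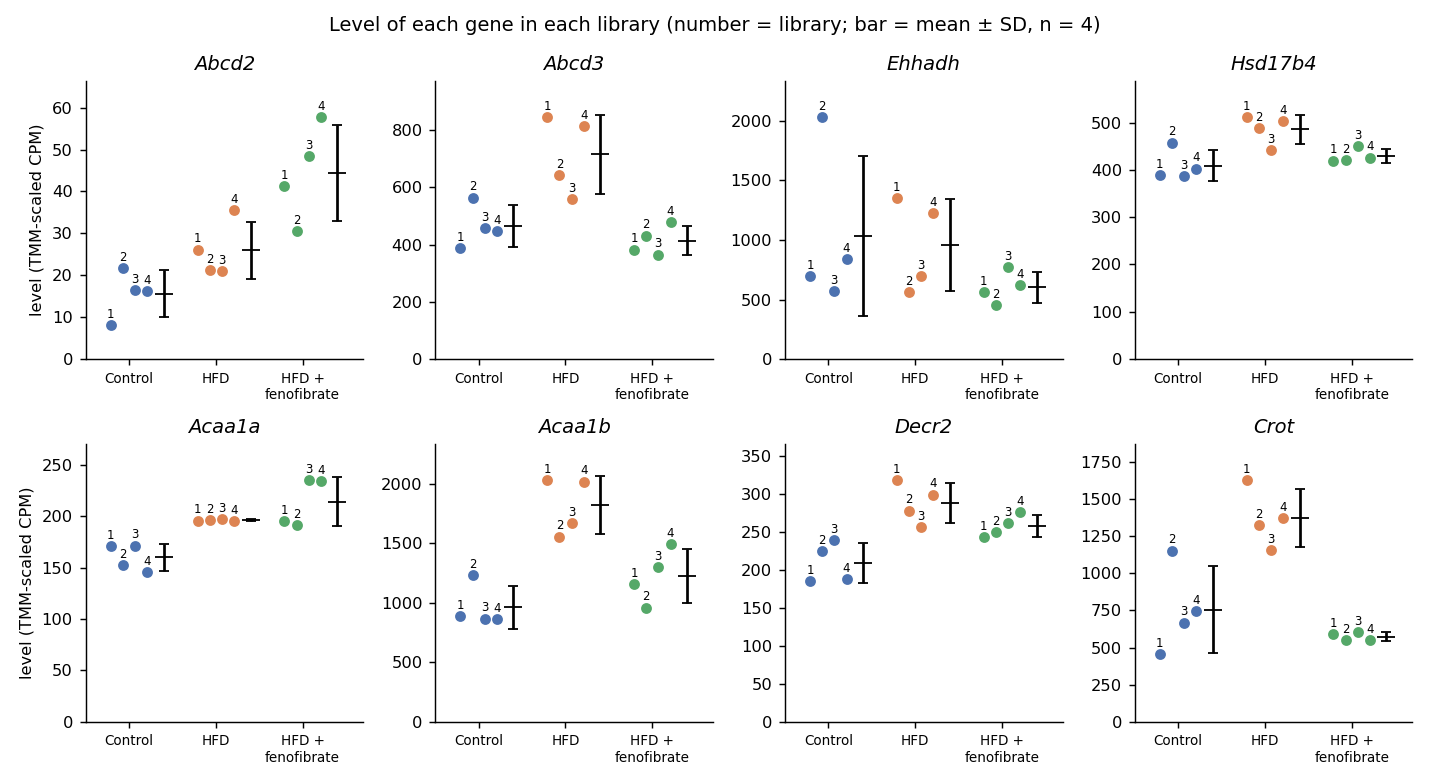
Level in TMM-scaled CPM (vertical axis) of each of the 8 genes in each library of Control, HFD and HFD plus fenofibrate; points carry the library number and bars give the mean ± SD of 4 libraries. Crot lies between 549 and 605 CPM in the fenofibrate libraries and between 1155 and 1629 in HFD, while Abcd2 is highest with fenofibrate and Ehhadh spreads from 567 to 2030.4 within Control.

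The importers moved in opposite directions with fenofibrate. Abcd3 (ENSMUSG00000028127, GRCm38 chr3:121758774-121815302, minus strand) encodes the abundant half-transporter PMP70, which carries long-chain, dicarboxylic and bile acid-related acyl-CoAs. Its level in Control libraries 1 to 4 was 388, 565, 457 and 446 CPM. In HFD libraries 1 to 4 it was 845, 644, 559 and 813 CPM, and in fenofibrate libraries 1 to 4 it was 383, 431, 365 and 478 CPM. The lowest HFD library lay just below Control library 2, and all 4 fenofibrate libraries lay below all 4 HFD libraries. Abcd3 rose in HFD against Control (0.62 ± 0.15, adjusted p = 0.0118) and fell with fenofibrate against HFD (-0.79 ± 0.15, adjusted p = 0.00452). Against Control, the fenofibrate level had a log2 change of -0.16 ± 0.15 (adjusted p = 0.525). Without fenofibrate libraries 1 and 3 the change against HFD was -0.65 and no longer passed (adjusted p = 0.113), and that against Control was -0.016 (adjusted p = 0.977).

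Abcd2 (ENSMUSG00000055782, chr15:91145884-91191807, minus strand) encodes a related half-transporter for very long-chain and polyunsaturated acyl-CoAs, and it was the scarcest of the 8 genes, with 144 to 1171 reads per library. Control libraries 1 to 4 held 8.06, 21.8, 16.5 and 16.2 CPM. HFD libraries held 26.1, 21.1, 20.99 and 35.6 CPM, and fenofibrate libraries 41.3, 30.6, 48.5 and 57.7 CPM. Every fenofibrate library exceeded every Control library, whereas HFD library 4 exceeded fenofibrate library 2. Abcd2 rose in fenofibrate against Control (1.51 ± 0.26, adjusted p = 0.00191), from 15.6 ± 5.67 to 44.5 ± 11.5 CPM. This call held in all 24 alternative analyses, with an adjusted p of at most 0.0184. The rise against HFD (0.78 ± 0.25, adjusted p = 0.0489) passed narrowly. It was lost in 11 of 24 alternatives, including every single omission of Control libraries 3 and 4, HFD libraries 1 to 3 and fenofibrate libraries 1, 3 and 4, with adjusted p up to 0.122, and reached 0.251 without fenofibrate libraries 1 and 3, where the change was 0.77. Without those 2 libraries the change against Control was 1.52 (adjusted p = 0.0184). HFD against Control gave 0.73 ± 0.26 (adjusted p = 0.0743), which passed without Control library 2 (0.94, adjusted p = 0.035). The authors' deposited table gives it an adjusted p of 0.033 and does not mark it as significant. Acaa1b in HFD against Control, at an authors' adjusted p of 9.63e-09, is not marked there either.

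Per kilobase of exon, Abcd3 exceeded Abcd2 in every library. The ratio of Abcd3 to Abcd2 was 43.5, 23.4, 25.0 and 24.8 in Control libraries 1 to 4. It was 29.2, 27.5, 24.0 and 20.6 in HFD, and 8.37, 12.7, 6.78 and 7.47 with fenofibrate. The fenofibrate ratios thus lay below all others, at 8.83 ± 2.67 (SD, n = 4), those of libraries 2 and 4 included. The size of the ratio depends on the length used. Per kilobase of 1 coding transcript, Abcd3 stood at 133 and Abcd2 at 2.83 CPM in Control, against 70.4 and 2.63 per kilobase of exon. This ratio was chosen after the values were seen and is given with no test.

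**Figure D2:**
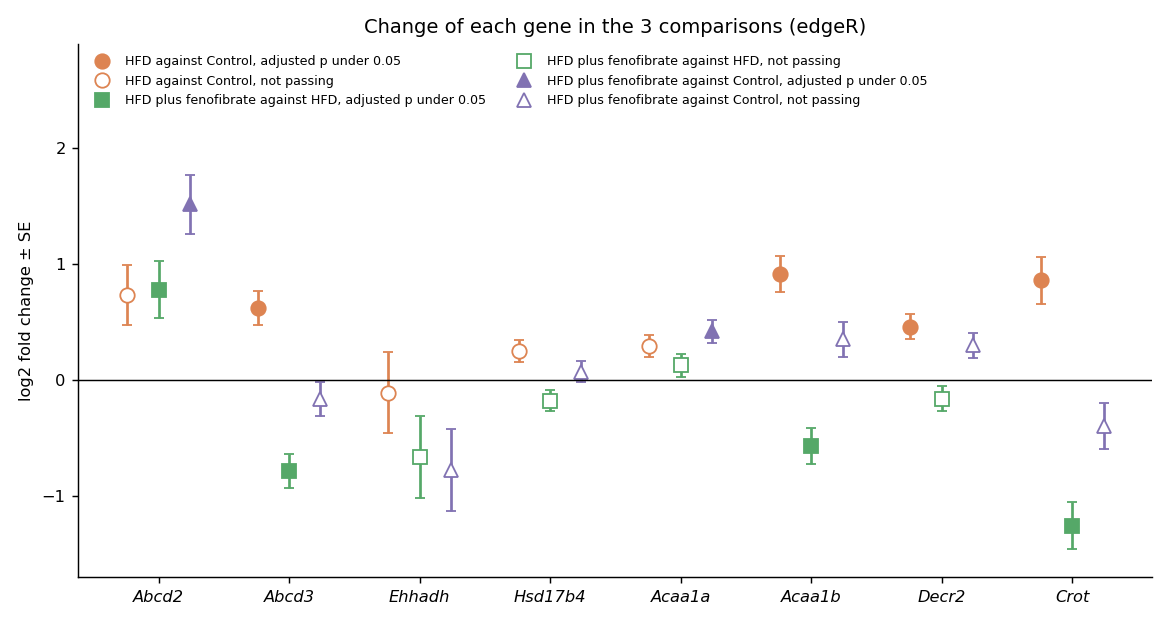
Log2 fold change ± SE (vertical axis) of each gene in HFD against Control, HFD plus fenofibrate against HFD and HFD plus fenofibrate against Control, from edgeR on 4 libraries per group; filled symbols have an adjusted p under 0.05. Abcd3, Acaa1b and Crot are filled above 0 for the diet and below 0 for the drug, and Abcd2 is filled above 0 in both fenofibrate comparisons.

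The 2 multifunctional enzymes passed in no comparison. Hsd17b4 (ENSMUSG00000024507, chr18:50128201-50196269, plus strand) encodes the D-bifunctional enzyme, used for branched chains and bile acid precursors; it was the steadier of the pair. Control libraries held 389, 458, 387 and 402 CPM. HFD libraries held 511, 488, 442 and 503 CPM, and fenofibrate libraries 419.6, 420.4, 450.1 and 426 CPM. Only HFD library 3 fell below Control library 2, and the fenofibrate mean lay between those of the other groups. HFD against Control gave 0.25 ± 0.09 (adjusted p = 0.0864), a value that passed without Control library 2 (0.31, adjusted p = 0.0451) and with DESeq2 (adjusted p = 0.0119). The authors' deposited table gives it an adjusted p of 0.042 and does not mark it as significant, and Acaa1b at 9.63e-09 is not marked either. Fenofibrate gave -0.18 ± 0.09 against HFD (adjusted p = 0.189) and 0.07 ± 0.09 against Control (adjusted p = 0.681). These were -0.20 and 0.06 without fenofibrate libraries 1 and 3.

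Ehhadh (ENSMUSG00000022853, chr16:21761287-21787844, minus strand) encodes the L-bifunctional enzyme, which combines hydratase and dehydrogenase steps and handles straight and dicarboxylic chains. Control libraries 1 to 4 held 698, 2030.4, 567 and 840 CPM. HFD libraries held 1350.5, 559, 699 and 1223 CPM, and fenofibrate libraries 564, 456, 770 and 623 CPM. Levels within Control differed by 3.58-fold and within HFD by 2.41-fold, so all 3 groups overlapped. The log2 changes were -0.11 ± 0.35 in HFD against Control (adjusted p = 0.88), -0.67 ± 0.35 with fenofibrate against HFD (adjusted p = 0.211) and -0.78 ± 0.35 against Control (adjusted p = 0.187). The sign of the first turned in 4 of 24 alternatives. Without Control library 2 it was 0.45 (adjusted p = 0.312), and the change of fenofibrate against Control was -0.22. Leaving out fenofibrate libraries 1 and 3 gave -0.82 against HFD (adjusted p = 0.394) and -0.92 against Control (adjusted p = 0.367).

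The thiolase step is shared by 2 genes with near-identical coding sequences. Acaa1a (ENSMUSG00000036138, chr9:119339676-119350299, plus strand) and Acaa1b (ENSMUSG00000010651, chr9:119148023-119157093, minus strand) lie close together on chromosome 9. Each has 1275 coding bases, 1231 of which (96.5%) were identical between the GENCODE M21 transcripts, with a longest identical run of 327 bases. Of all 50-base windows of the Acaa1b transcripts, 30.5% also occurred in Acaa1a, and 12.4% of those of Acaa1a occurred in Acaa1b. For 100-base windows these shares were lower, at 19.3% and 7.21%. A read from such a window cannot be assigned to 1 of the 2 genes by its sequence. The stretch below, coding bases 259 to 318 counted from the A of the start codon, is shown because it is where the 2 genes differ most densely; the 11 capitals mark the bases that differ.
Acaa1a: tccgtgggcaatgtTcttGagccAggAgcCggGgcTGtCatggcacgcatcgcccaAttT
Acaa1b: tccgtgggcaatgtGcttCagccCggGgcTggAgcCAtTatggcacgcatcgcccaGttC

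Acaa1b had the highest level per kilobase of the 8 genes. Control libraries 1 to 4 held 887, 1236, 868.3 and 861 CPM. HFD libraries held 2034, 1558, 1669 and 2021 CPM, and fenofibrate libraries 1157, 959.9, 1301 and 1492 CPM. All HFD libraries lay above all others, and fenofibrate overlapped Control. Acaa1b rose in HFD against Control (0.92 ± 0.16, adjusted p = 0.00134), a call that held in all 23 alternatives run. It fell with fenofibrate against HFD (-0.57 ± 0.15, adjusted p = 0.0272) and was at 0.35 ± 0.15 against Control (adjusted p = 0.176). The fall was lost in 7 of 23 alternatives: without HFD library 1 (adjusted p = 0.0782) or 4 (0.0785), without fenofibrate library 1 (0.0733) or 3 (0.06), without both of these (0.197) or these and Control library 2 (0.139), and with library totals in place of TMM (0.0795). Its size was -0.57 without both fenofibrate libraries and -0.39 with library totals. Against Control, the change without both libraries was 0.36.

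Acaa1a showed another pattern. Control libraries held 171, 153, 171 and 145 CPM. HFD libraries held 196, 196, 197 and 195 CPM, and fenofibrate libraries 195, 191, 235 and 234 CPM. The HFD libraries had an SD of 0.783 CPM and lay above all Control libraries, and fenofibrate libraries 3 and 4 were the highest. That SD is of TMM-scaled levels, and HFD libraries 1 to 4 held 2900, 3335, 3206 and 3146 reads of the gene. Their total counts were 16558950, 16983854, 15797016 and 16707408, and their TMM factors 0.896, 1.001, 1.032 and 0.966. HFD library 3 thus held more reads of the gene than HFD library 1 from a smaller total. The closeness therefore holds for the TMM-scaled levels and not for the shares of total reads. Acaa1a rose in fenofibrate against Control (0.42 ± 0.10, adjusted p = 0.0139). It no longer passed without Control library 4 (adjusted p = 0.0517) or without fenofibrate libraries 1 and 3 (0.0837), where the change was 0.42. HFD against Control gave 0.29 ± 0.10 (adjusted p = 0.0613; 0.0102 in the authors' deposited table), and fenofibrate against HFD 0.13 ± 0.10 (adjusted p = 0.395), or 0.12 without those 2 libraries.

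Acaa1b took 83.9%, 89.0%, 83.5% and 85.6% of the summed Acaa1a and Acaa1b reads in Control libraries 1 to 4. It took 91.2%, 88.8%, 89.5% and 91.2% in HFD and 85.6%, 83.4%, 84.7% and 86.4% with fenofibrate. All fenofibrate shares lay below all HFD shares, while Control library 2 reached into the HFD range. The mean share was 5.15 percentage points lower with fenofibrate than in HFD (difference -5.15, two-sided exact permutation p = 0.0286, the smallest that 4 against 4 libraries allow, and 0.0857 adjusted over the 3 comparisons). HFD exceeded Control by 4.68 points (exact permutation p = 0.0571, adjusted 0.0857), and fenofibrate and Control differed by -0.474 points (exact permutation p = 0.771). None of the 3 passed after adjustment. The difference against HFD without fenofibrate libraries 1 and 3 was -5.26 points (exact permutation test, adjusted p = 0.2) and that against Control -0.584 points. With so few fenofibrate libraries left, this test could not reach an adjusted p under 0.05 at any difference, so its p-value decides nothing. Counted as 1 gene, the pair rose in HFD (0.84 ± 0.14, adjusted p = 0.00139), fell with fenofibrate (-0.48 ± 0.14, adjusted p = 0.0371) and was at 0.36 ± 0.14 against Control (adjusted p = 0.131). Exons of each gene also overlap a gene on the opposite strand, Acaa1a and Myd88 by 290 bases and Acaa1b and Dlec1 by 224 bases. No source used here gives the strand setting of the counting, and reads from those stretches cannot be told apart.

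**Figure D3:**
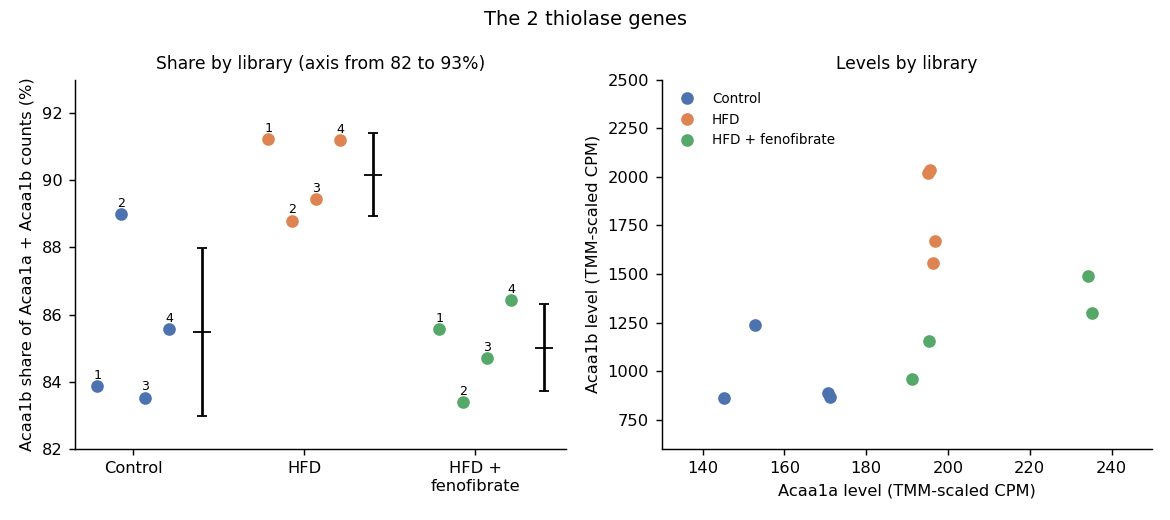
Left, share of Acaa1b in the summed Acaa1a and Acaa1b reads of each library in percent, with group mean ± SD of 4 libraries on an axis that does not start at 0. Right, level of Acaa1b against Acaa1a in TMM-scaled CPM, 1 point per library. The HFD points lie at an Acaa1a level of 195 to 197 CPM after this scaling and have the highest Acaa1b levels.

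Decr2 (ENSMUSG00000036775, chr17:26081211-26090329, minus strand) encodes the peroxisomal dienoyl-CoA reductase, an auxiliary enzyme that removes double bonds of polyunsaturated chains. Control libraries held 186, 225, 239 and 188 CPM. HFD libraries held 319, 278, 257 and 299 CPM, and fenofibrate libraries 244, 249.7, 261 and 276 CPM. Control libraries lay below all others, and HFD and fenofibrate overlapped. Decr2 rose in HFD against Control (0.46 ± 0.11, adjusted p = 0.0104), in all 24 alternatives as well. Fenofibrate gave -0.16 ± 0.11 against HFD (adjusted p = 0.317) and 0.30 ± 0.11 against Control (adjusted p = 0.0931), which passed with DESeq2 (adjusted p = 0.0412). With fenofibrate libraries 1 and 3 left out these were -0.13 and 0.34 (adjusted p = 0.679 and 0.24).

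Crot (ENSMUSG00000003623, chr5:8966033-8997324, minus strand) encodes carnitine O-octanoyltransferase, which turns shortened acyl-CoAs into carnitine esters that leave for the mitochondria. Its change with fenofibrate was the largest of the 8 genes in size against HFD. Control libraries held 458, 1153, 668 and 744 CPM. HFD libraries held 1629, 1327, 1155 and 1371 CPM, and fenofibrate libraries 591, 549, 605 and 549.5 CPM. The lowest HFD library stood just above the highest Control library, and all fenofibrate libraries lay within the Control range. Crot rose in HFD against Control (0.86 ± 0.20, adjusted p = 0.0117) and fell by 58.1% with fenofibrate against HFD (-1.26 ± 0.20, adjusted p = 0.00225). Both calls held in all 24 alternatives. Without fenofibrate libraries 1 and 3 the fall was -1.31 (adjusted p = 0.037) and the change against Control -0.45 (adjusted p = 0.458), and without Control library 2 the rise was 1.14 (adjusted p = 0.000441). Fenofibrate against Control gave -0.40 ± 0.20 (adjusted p = 0.238), which passed without Control library 1 (-0.56, adjusted p = 0.0358). Crot was also the only one of the 8 that the authors' deposited table marks as significant, in fenofibrate against HFD. Its log2 fold change there is -1.26. Abcd3 in the same comparison, at -0.79 and an authors' adjusted p of 3.33e-06, is not marked.

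Per kilobase of the exons annotated for each gene, mean levels in Control ran from Acaa1b at 491 ± 92.9 CPM per kb through Ehhadh at 347 ± 226, Crot at 139 ± 53.4, Hsd17b4 at 120.1 ± 9.80, Decr2 at 79.0 ± 10.1, Abcd3 at 70.4 ± 11.1 and Acaa1a at 36.2 ± 2.95 to Abcd2 at 2.63 ± 0.953 (SD, n = 4). The library ranges of the neighbours Acaa1b and Ehhadh, Ehhadh and Crot, Crot and Hsd17b4, and Decr2 and Abcd3 overlapped. In HFD the level of Acaa1b was 928 ± 124 CPM per kb and that of Ehhadh 321 ± 129.9, with no overlap, and Crot followed at 251 ± 35.9. With fenofibrate Acaa1b stood at 626 ± 115, Ehhadh at 202 ± 44.0 and Crot at 105 ± 5.31 CPM per kb, below Hsd17b4 at 126 ± 4.21. The levels and their order depend on the length used. With 1 coding transcript per gene, Acaa1a in Control stood at 90.8 ± 7.38 CPM per kb, against 36.2 above. Abcd3 at 133 ± 21.1 CPM per kb then stood above Decr2 at 105 ± 13.4 in Control. Crot at 191 ± 9.67 stood above Hsd17b4 at 160 ± 5.34 with fenofibrate.

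By TMM-scaled level, 1 library in Control and 1 in HFD was the highest of its group for most of the 8 genes. Control library 2 was the highest Control library for 6 of the 8 genes, all but Acaa1a and Decr2. Its TMM factor, 0.884, was the lowest of all libraries. As a share of all reads, the 8 genes together held 0.516% there, against 0.317% to 0.340% in the other Control libraries. HFD library 1 was the highest HFD library for 6 of the 8, all but Acaa1a and Abcd2, and HFD library 3 was the lowest for 5. The TMM factor of HFD library 1 was the lowest of its group, at 0.896. As a share of all reads, the 8 genes together held 0.618% there, below the 0.624% of HFD library 4. With fenofibrate, libraries 3 and 4 were each the highest for 4 genes and library 2 the lowest for 5. In Control library 2 the fasting- and PPARA-responsive gene Pdk4 stood at 111 CPM, against 28.0 to 34.5 CPM in the other Control libraries. In HFD it stood at 52.9 and 44.9 CPM in libraries 1 and 4 and at 10.7 and 6.44 CPM in libraries 2 and 3. In fenofibrate libraries 1 to 4 it stood at 22.1, 8.04, 18.6 and 7.34 CPM, so that library 4, the highest for Acaa1b, Abcd2, Abcd3 and Decr2, had the lowest Pdk4. HFD library 1 also had the lowest sums of macrophage markers (5 of 5 listed; 169 CPM, against 361 to 437 in the other HFD libraries, 250.5 to 304 in Control and 225 to 401 with fenofibrate) and of endothelial markers (5 of 5 listed; 102 CPM, against 192 to 208 in HFD, 145 to 192 in Control and 165 to 206 with fenofibrate), with no marker of either list at 0 in a whole group. The part of these differences in the results was not tested. Together the 8 genes held 0.374% ± 0.095 of each Control library's reads, 0.566% ± 0.0635 of each HFD library's and 0.412% ± 0.0644 of each fenofibrate library's (SD, n = 4).

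Other genes related to the peroxisome, and PPARA with its receptor partners, were read from 7 lists holding 53 genes. Of these, 50 were tested (Acoxl, Eci3 and Acot5 were too scarce). In HFD against Control 10 rose and 4 fell, with a median log2 change of 0.14. With fenofibrate against HFD 4 rose and 8 fell, with a median of -0.10, and against Control 3 rose and 2 fell, with a median of 0.02. Over all genes tested, 6.13% rose and 6.64% fell in HFD against Control. The shares were 6.89% and 6.59% with fenofibrate against HFD, and 4.86% and 4.31% against Control. The counts of single lists below stand against the same shares. Of the 26 calls among the genes that the naming rule chose from these lists, 7 held in every alternative and 19 were lost in at least 1, with no change of sign. Without fenofibrate libraries 1 and 3, Nudt7 (-1.22, adjusted p = 0.0354) was the only 1 of these genes' 11 calls against HFD that still passed, and all 11 kept their sign at 78.1% to 102% of the full log2 change. The 2 calls against Control, Pxmp4 and Aldh3a2, still passed.

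At the first step of the cycle, Acox2, the oxidase of branched chains and bile acid precursors, rose with fenofibrate against HFD (0.37 ± 0.12, adjusted p = 0.0468). It passed narrowly and was lost in 15 of 24 alternatives. Of 4 tested auxiliary isomerases, reductases and racemase, 2 rose in HFD and both fell with fenofibrate. Amacr, the racemase of branched chains, went from 135 ± 16.5 to 201 ± 14.8 and 139.8 ± 3.19 CPM (0.57 ± 0.10, adjusted p = 0.00168, then -0.52 ± 0.10, adjusted p = 0.00483). Eci2, an enoyl-CoA isomerase, gave 0.41 ± 0.13 (adjusted p = 0.0492) and -0.44 ± 0.13 (adjusted p = 0.0358), and these calls were lost in 11 and 8 of 24 alternatives.

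Among 8 tested thioesterases, thiolase and export genes, 3 rose and 1 fell in HFD, and 0 rose and 2 fell with fenofibrate against HFD. In the latter, 1 gene was higher at an unadjusted p under 0.05 (edgeR), as were 15.8% of all genes. Nudt7, a hydrolase of coenzyme A and its esters, had the largest change of the 50 genes in both comparisons. Its Control libraries held 83.2, 164, 141 and 105 CPM, its HFD libraries 249, 369.99, 235 and 295 CPM, and its fenofibrate libraries 96.2, 118, 82.9 and 128 CPM. The HFD libraries lay above all others. Nudt7 rose by 1.22 ± 0.20 (adjusted p = 0.00119) and fell with fenofibrate (-1.43 ± 0.20, adjusted p = 0.000953), in all alternatives. Scp2, the sterol carrier with thiolase activity, moved the same ways (0.44 ± 0.13, adjusted p = 0.0339, and -0.53 ± 0.13, adjusted p = 0.0157), calls lost in 7 and 4 of 24 alternatives. Acot8, a thioesterase, rose in HFD (0.39 ± 0.12, adjusted p = 0.0388), a call lost in 5 of 24.

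Of 8 other genes of import and activation, 1 rose and 2 fell in HFD, and 2 rose and 2 fell with fenofibrate against HFD. Slc27a2, which activates very long-chain fatty acids, rose in HFD (0.37 ± 0.11, adjusted p = 0.0401), while Mpv17l (-0.86 ± 0.24, adjusted p = 0.0313) and Abcd4 (-0.57 ± 0.17, adjusted p = 0.038), a family member known for lysosomal cobalamin transport, fell. These 3 calls were lost in 9, 7 and 13 of 24 alternatives. Abcd4 rose with fenofibrate from 9.46 ± 1.39 to 18.0 ± 1.69 CPM (0.93 ± 0.17, adjusted p = 0.00372), lost in 1 of 24. Slc25a17, a carrier of coenzyme A and other cofactors, fell (-0.65 ± 0.12, adjusted p = 0.00383), lost in 2 of 24. Pxmp4 fell with fenofibrate against HFD (-0.59 ± 0.16, adjusted p = 0.0253, lost in 6 of 24) and against Control (-1.07 ± 0.16, adjusted p = 0.000875, lost in none).

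In the list of alpha-oxidation, bile acid conjugation and hydrogen peroxide removal, 1 of 5 rose in HFD. Aldh3a2, a fatty aldehyde dehydrogenase, went from 298 ± 68.8 to 576 ± 60.7 CPM (0.95 ± 0.15, adjusted p = 0.000718) and was also higher with fenofibrate than in Control (0.70 ± 0.15, adjusted p = 0.00794). Both calls held in all 24 alternatives. Of 16 peroxisome assembly genes, 2 rose in HFD and 2 fell with fenofibrate against HFD. Pex11a, which promotes peroxisome division, rose from 96.9 ± 21.9 to 159 ± 13.7 CPM (0.71 ± 0.14, adjusted p = 0.00464) and fell to 101 ± 13.7 CPM (-0.65 ± 0.14, adjusted p = 0.0105, lost in 2 of 24 alternatives). Pex7, an import receptor, rose in HFD (0.37 ± 0.10, adjusted p = 0.0207, lost in 3 of 24), and Pex13, a docking protein of the import machinery, fell with fenofibrate (-0.67 ± 0.15, adjusted p = 0.0097, lost in 2 of 24). Among PPARA and 5 receptor partners, Rxrb, a heterodimer partner, fell in HFD (-0.29 ± 0.09, adjusted p = 0.0373) and rose with fenofibrate (0.28 ± 0.09, adjusted p = 0.0421), calls lost in 16 and 11 of 24 alternatives. Ppara itself, given as the receptor the drug acts on, stood at 40.9 ± 10.8 CPM in Control, 57.2 ± 9.32 in HFD and 50.1 ± 6.21 with fenofibrate and passed in no comparison.

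**Figure D4:**
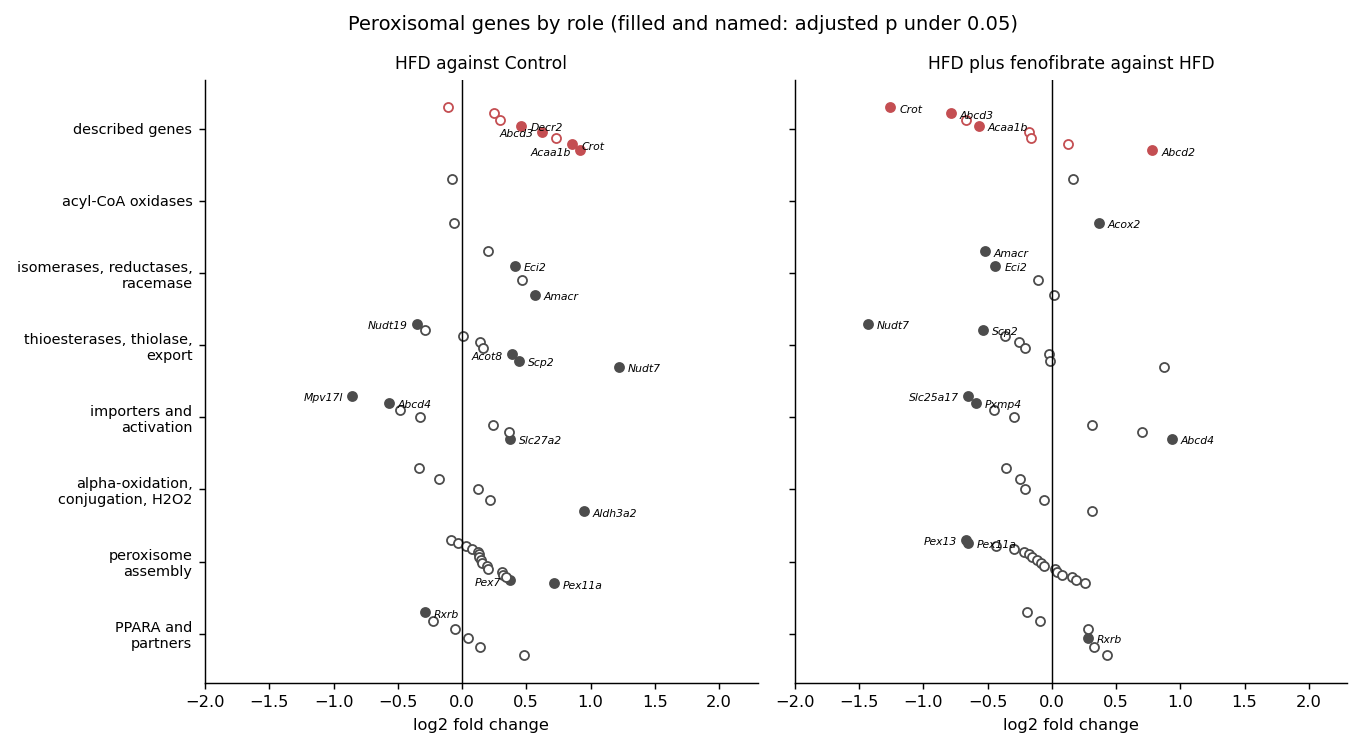
Log2 fold change (horizontal axis) of the 8 described genes (red) and of other genes by list (grey), 1 list being PPARA and its receptor partners. HFD against Control is on the left and HFD plus fenofibrate against HFD on the right, each from 4 libraries per group. Filled, named points have an adjusted p under 0.05. Nudt7 lies farthest out in both panels, at 1.22 and -1.43.

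For each of the 8 genes, the 3 other genes with the most similar profile were found by Pearson's r of log2 CPM over the 12 libraries, among 7083 genes with a mean of at least 10 CPM. These values describe profiles that share libraries, groups and depth. Abcd3 was closest to Acsl5, an acyl-CoA synthetase (r = 0.978), then Abhd6 (0.968) and Fcgrt (0.965). Crot was closest to Fas (0.957), Adtrp (0.956) and Acad11, an acyl-CoA dehydrogenase (0.955). Hsd17b4 was closest to Il15ra (0.942) and to the mitochondrial beta-oxidation genes Hadhb (0.935) and Decr1 (0.926). Acaa1b was closest to Cdk2 (0.930), Slc39a1 (0.929) and Pctp (0.921), and Acaa1a to Soat2 (0.959), Stxbp2 (0.940) and Farp1 (0.932). The 2 thiolase genes had none of these in common, and neither did any other pair of the 8 genes. For Abcd2 the nearest were Fdft1, the squalene synthase gene (0.931), Cyp4a31 (0.877) and Rab1b (0.867). Ehhadh had Aaed1 (0.893), Acot1, an acyl-CoA thioesterase (0.865), and Dnaja2 (0.861), and Decr2 had Arpc1a (0.919), Mmd (0.915) and Cnot8 (0.907).

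The 250 bases before the annotated start were read for the 6 of the 8 genes matched in the RefSeq table (GRCm38.p6). The promoters shown are those of Acaa1b and Abcd3, which rose with the diet and fell with the drug, and that of Ehhadh, which passed in no comparison. They lie at chr9:119157094-119157343, chr3:121815303-121815552 and chr16:21787835-21788084, all on the minus strand; the Ehhadh window reaches into the deposited gene position. Capitals mark CCAAT boxes on either strand (CCAAT or its reverse complement).
Acaa1b: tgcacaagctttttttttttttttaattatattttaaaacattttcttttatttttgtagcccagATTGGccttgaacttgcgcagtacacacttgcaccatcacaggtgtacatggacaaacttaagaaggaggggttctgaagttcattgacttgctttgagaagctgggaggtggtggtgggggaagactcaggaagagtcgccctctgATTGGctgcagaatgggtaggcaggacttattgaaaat
Abcd3: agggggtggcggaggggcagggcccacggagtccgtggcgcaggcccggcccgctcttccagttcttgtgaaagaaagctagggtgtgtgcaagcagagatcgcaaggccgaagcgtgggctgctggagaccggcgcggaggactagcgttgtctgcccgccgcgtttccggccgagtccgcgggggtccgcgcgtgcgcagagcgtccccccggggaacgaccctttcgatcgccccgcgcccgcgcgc
Ehhadh: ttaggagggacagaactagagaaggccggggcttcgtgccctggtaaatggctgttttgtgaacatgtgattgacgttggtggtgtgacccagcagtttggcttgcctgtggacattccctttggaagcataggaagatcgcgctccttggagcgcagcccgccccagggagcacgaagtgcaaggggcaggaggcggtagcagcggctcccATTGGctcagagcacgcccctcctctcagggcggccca

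The windows differed in composition. GC content was 41.6% for Acaa1b, 60.4% for Ehhadh and 72% for Abcd3, against a median of 52.4% over 32851 promoter windows of the same length. Acaa1b had CCAAT boxes starting 185 and 38 bases before the start and Ehhadh had 1 starting at 38 bases, and none was found for Abcd3 or Decr2. Crot had 1 such box and Acaa1a 3, and 33.8% of all windows had at least 1. The GC box GGGCGG, found in 32.7% of all windows, occurred in those of Crot, Acaa1a, Ehhadh and Decr2. No window of the 6 genes held the nuclear receptor half-site AGGTCA (14.0% of all windows), its direct repeat AGGTCANAGGTCA with up to 2 mismatches (3.24%) or the E-box CACGTG (6.02%), on either strand. That says only that these letters are not in these windows.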

How the data were processed

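Liver RNA of 12 libraries was analysed, 4 per group. The values used are the deposited raw read counts per Ensembl gene, whole numbers per the file headers, in 2 tables of 8 libraries each that both hold the HFD libraries. HISAT2 2.0.5, StringTie 1.3.2d and HTSeq 0.6.0 are named in the submitters' processing notes, without settings, strand or annotation release. Of the deposited columns, the log2 fold change, p-value and adjusted p-value come from a comparison by the authors whose test the headers do not name. The notes list mm8 and mm9, but 23225 of 25113 gene positions (92.48%) match GENCODE M21 on GRCm38.

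The tables were joined by gene identifier (25164 genes, 22657 in both, 0 differing HFD counts), with 0 counts entered for a gene absent from 1 table. Counts were fitted in edgeR 4.0.16 (R 4.3.3) with filterByExpr (13477 genes holding 99.87% of counts), TMM factors of 0.884 to 1.16, all 12 libraries, 1 coefficient per group, a quasi-likelihood test and a prior count of 0.125. The SE is the log2 fold change divided by the square root of F, and the common biological coefficient of variation was 0.155. Marker sums are CPM of total counts without TMM. The Acaa1b share was compared with two-sided exact permutation tests (scipy 1.17.1). The code was tested on simulated data. Same-numbered libraries did not deviate together (r of -0.175 to 0.139). Within groups, all 18 library pairs differed by more than sampling noise (chi-square per gene 14.7 to 41.2).

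Named were the 8 genes, of each list the called genes of the first 2 comparisons (up to 3 per comparison, by size of change), and the 3 genes most like each of the 8. The 8 genes and the lists were chosen with earlier results of these data known. Alternatives were DESeq2 1.42.0, limma-voom (limma 3.58.1), other scalings and filters, a fit of only the libraries compared, a replicate block, each library left out, fenofibrate libraries 1 and 3 left out without or with Control library 2, and the thiolase counts summed. Sequences are from RefSeq promoter windows and GENCODE M21 transcripts; windows overlapping exons of the gene are not shown, nor are promoters of Hsd17b4 and Abcd2. Results for some listed genes are not reported here.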

Additional observations from a re-analysis of the deposited data

Results flagged for a closer look

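Among 78 groups of 4 libraries examined for a single library far from the other 3, 2 were flagged, where chance flags about 1 group in 20. Control library 2 had 1236 CPM of Acaa1b, while the other 3 Control libraries had 861 to 887 CPM. Pex11a, the peroxisome division gene, stood at 121 CPM in fenofibrate library 4 and at 91.5 to 96.6 CPM in the other fenofibrate libraries.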

How the results depend on the processing

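The rises of Acaa1b, Crot, Abcd3 and Decr2 in HFD, the fall of Crot with fenofibrate and the rise of Abcd2 against Control held in every alternative run for them. Over all alternatives, the 10 calls of the 8 genes were kept 214 times and lost 23 times, and their 14 values that were not called gained a call 13 times and stayed uncalled 320 times. With DESeq2, 7 of the 8 rose in HFD. With library totals in place of TMM, which moved the median log2 change of all genes by 0.17 for fenofibrate against HFD and 0.21 against Control, 5 rose in fenofibrate against Control and 2417 genes were called in all, against 1236. The share of calls that were higher was then 63.7%, 82% and 87.7% in the 3 comparisons, against 48%, 51.1% and 53% with TMM. Decr2 against HFD and Abcd3 against Control changed sign there, neither being called. Filtering on a mean of 1 CPM left 0 rising with fenofibrate against HFD. Without fenofibrate libraries 1 and 3, 0 rose and 1 fell against HFD (124 genes called in all, against 1816) and 1 rose against Control (373 in all). With Control library 2 left out too, 0 rose and 1 fell (145 in all) and 1 rose (299 in all). With the thiolase counts summed, 1 rose against Control. Leaving out 1 library at a time gave 4 to 6 rising and 0 falling in HFD, 0 to 1 rising and 2 to 3 falling with fenofibrate against HFD, and 1 to 2 rising and 0 to 1 falling against Control, with 1112 to 1762, 610 to 2416 and 717 to 1710 genes called in all. The Acaa1b share then differed by 4.02 to 5.85, -5.62 to -4.61 and -1.13 to 0.697 points. With the replicate block the counts were 4 and 0, 1 and 3, and 2 and 0, with 1511, 1674 and 1104 genes called in all; the numbers do not pair the libraries. The causes of these changes were not tested. Abcd2 had the fewest reads of the 8 genes, 144 to 1171 per library, and the part of depth in its spread was not tested.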
